A study of Mus musculus with 12 samples.

Results

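The X-linked mouse genes Bex1, Bex2, Bex4, Tceal1, Tceal5, Tceal7 and Tceal8 are 7 of the 20883 genes that the array probes could be matched to. Their 8 probes, out of 55681 on the array, were found by the RefSeq accession of each probe, and Bex1 is the gene with 2 probes. The genes were chosen from results of these same 12 arrays in all 3 comparisons, so their levels and differences are given as a description and without a test.

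RNA was measured in adherent peritoneal macrophages of wild-type C57BL/6 mice on 12 one-colour Agilent arrays, 4 in each of 3 groups. The LPS_IFNg_emodin group received LPS (bacterial lipopolysaccharide, 100 ng/ml), interferon gamma (IFNg, 20 ng/ml) and emodin, a plant anthraquinone, at 50 µM. The LPS_IFNg group received the same LPS and IFNg without emodin. The control group is a vehicle control, and the labels give 20 h of treatment. All cells had spent a night without serum beforehand. Mice of the LPS_IFNg_emodin and LPS_IFNg groups were 9 weeks old and labelled female, while control mice were 8 weeks old, with replicates 1 and 2 labelled female and replicates 3 and 4 labelled male. The design text names another leukocyte than the tissue label does. The macrophage genes Adgre1, Csf1r, Itgam, Lyz2 and Cd14 were well above background on all 12 arrays, but Timd4 was on no LPS_IFNg_emodin array. Of the neutrophil markers, S100a8, Elane and Camp were well above background on all 12 arrays and the others were not. These genes do not decide between the names. No label ties a sample to 1 animal, so the spread between samples may be partly technical.

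Bex stands for brain expressed, X-linked. Bex proteins are small, poorly structured adaptors, known mainly from neurons, where Bex1 and Bex3 bind the intracellular part of the neurotrophin receptor p75NTR and link it to cell cycle exit or cell death. Tceal proteins are named for a resemblance to the elongation factor TFIIS (gene Tcea1), which restarts stalled RNA polymerase II, and TCEAL7 has been described in human cells as a repressor of Myc activity. The Bex and Tceal genes descend from a common ancestor together with the Armcx and Gprasp genes, sit close to them on the X chromosome of placental mammals, and share a promoter element with them that has been described under the name BGW.

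On the X chromosome the members run in the order Bex2, Bex4, Tceal8, Tceal5, Bex1, Tceal7 and Tceal1, with the relatives Tceal9, Bex3 and Tceal3 between Tceal7 and Tceal1. Promoter windows of 300 bases, 250 before and 50 after the annotated start, were taken from RefSeq on build GRCm38.p6, and all 7 members had one. The windows of Bex1 and Bex4 are shown because they are near copies, with 288 identical bases of 294 aligned without gaps (98.0%), while Bex1 was measured on all 12 arrays and Bex4 on none. Capitals mark the E-box CACGTG, a sequence bound by basic helix-loop-helix factors such as Myc, and the GC box GGGCGG, bound by Sp1.
Bex1 (chrX:136215464-136215763, minus strand): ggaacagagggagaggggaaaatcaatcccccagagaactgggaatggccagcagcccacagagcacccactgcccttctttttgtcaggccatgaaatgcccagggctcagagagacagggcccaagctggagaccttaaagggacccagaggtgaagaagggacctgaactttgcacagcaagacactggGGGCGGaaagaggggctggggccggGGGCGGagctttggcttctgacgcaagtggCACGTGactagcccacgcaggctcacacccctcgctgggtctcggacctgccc
Bex4 (chrX:136138746-136139045, plus strand): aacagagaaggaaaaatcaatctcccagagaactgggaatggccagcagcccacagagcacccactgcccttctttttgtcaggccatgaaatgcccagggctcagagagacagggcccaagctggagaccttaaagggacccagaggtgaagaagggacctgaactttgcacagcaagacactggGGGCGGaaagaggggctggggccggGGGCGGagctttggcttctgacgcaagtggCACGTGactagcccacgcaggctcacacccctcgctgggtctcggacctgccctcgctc

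The E-box lay in the windows of 6 of 7 members, all but Bex2, and of 6 of 15 relatives with a window, against 8.09% of the 27025 genes with a window. In the 6 members it was followed by an A, and the run CACGTGA occurred in 4.29% of all genes. The E-box and its surroundings in the 4 Tceal members, and in the relatives Bex3 and Armcx6 whose levels are given further on, are shown for comparison with the same place in Bex1 and Bex4, with the E-box in capitals.
Tceal1 (chrX:136707959-136708008, plus strand): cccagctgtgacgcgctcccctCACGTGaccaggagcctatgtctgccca
Tceal5 (chrX:136203872-136203921, minus strand): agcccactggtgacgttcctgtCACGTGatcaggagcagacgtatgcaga
Tceal7 (chrX:136223959-136224008, plus strand): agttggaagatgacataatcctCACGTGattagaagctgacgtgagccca
Tceal8 (chrX:136172207-136172256, minus strand): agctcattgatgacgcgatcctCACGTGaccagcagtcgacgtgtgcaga
Bex3 (chrX:136270258-136270302, plus strand): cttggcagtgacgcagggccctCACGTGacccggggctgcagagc
Armcx6 (chrX:134751418-134751467, minus strand): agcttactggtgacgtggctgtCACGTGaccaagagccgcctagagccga

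In 5 members, Bex1, Bex4, Tceal5, Tceal7 and Tceal8, the E-box stood 8 bases after TGAC, a spacing (TGAC, 8 free bases, CACGTG) held by 31 genes or 0.115% of all. The 4 relatives Tceal3, Tceal6, Armcx1 and Armcx6 were among those 31. The CACGTGA and TGAC patterns were noticed in these windows and then counted. Motifs of factors downstream of LPS and IFNg were searched as well, on both strands. No member window held the interferon element ISRE (GAAA, 2 free bases, GAAA; 3.99% of all genes), the GAS letters TTCNNNGAA (9.55%) or the AP-1 letters TGANTCA (8.97%), and the NF-kB letters (GGG, 5 free bases, CC) were in 4 members, against 53.5% of all genes. Letters of the cyclic AMP element TGACGTCA (2.03%) and of the xenobiotic element TNGCGTG (5.84%) were in no member window either. The antioxidant element letters TGACNNNGC were in Tceal5 and Tceal7 (14.0% of all genes), GGGCGG was in Bex1, Bex2, Bex4 and Tceal8 (38.2%), and TATAAA was in Bex2 (15.7%). These are matches of letters and say nothing on binding.

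Before the levels, 3 facts touch them. All control arrays were on another slide and scan run than the arrays of the other groups, so a difference from control cannot be told apart from slide, scan run and age. The 75th percentile of the processed signal was 435 to 547 on LPS_IFNg_emodin arrays, 764 to 951 on LPS_IFNg arrays and 745 to 969 on control arrays, and levels are given as log2 signal relative to it. On 4 arrays the sex-linked genes went against the label. Xist, the RNA of the inactive X, was well above background and Ddx3y and Eif2s3y of the Y chromosome were not on control replicates 3 and 4, which are labelled male, and the reverse held on replicate 3 of LPS_IFNg_emodin and of LPS_IFNg, which are labelled female. Kdm5d and Uty, also of the Y chromosome, were not well above background on any array. Replicate 3 was also the lowest array for Bex1 in each of the 3 groups. Values without these arrays (replicate 3 of each group and control replicate 4) are given for Bex1, Tceal7, Armcx1 and some counts of gene lists. Other values moved without them too and are not all given.

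**Figure D1:**
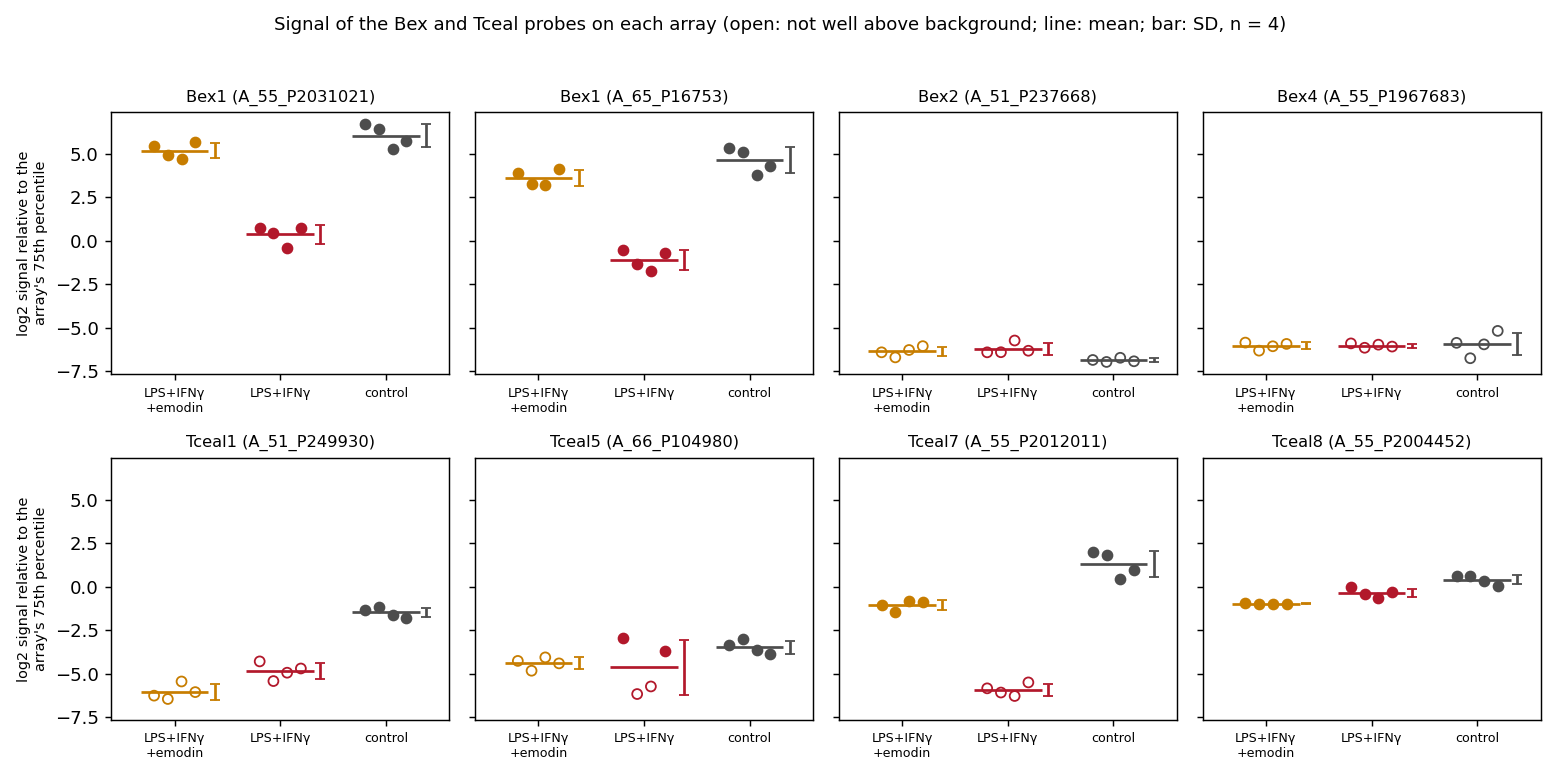
Log2 signal relative to the array's 75th percentile (y axis) of the 8 probes in LPS_IFNg_emodin, LPS_IFNg and control samples (x axis), with 1 point per array in replicate order, the mean as a line and the SD as a bar (n = 4). Filled points are well above background and open points are not. Levels can be compared within a panel, not between panels. Bex1 is 28.1-fold higher in LPS_IFNg_emodin than in LPS_IFNg samples on its brighter probe, Tceal7 is open on all LPS_IFNg arrays, and Bex2 and Bex4 are open on all 12 arrays.

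Bex1, the adaptor of p75NTR signalling, was measured well above background on every array, by 2 probes. On probe A_55_P2031021 its level was 5.44, 4.92, 4.73 and 5.69 in LPS_IFNg_emodin replicates 1 to 4, 0.77, 0.42, -0.40 and 0.74 in LPS_IFNg replicates 1 to 4, and 6.71, 6.42, 5.27 and 5.76 in control replicates 1 to 4. The LPS_IFNg arrays were all lower than any array of the other groups, and the LPS_IFNg_emodin and control arrays overlapped. In processed signal, before scaling, these levels correspond to 13310 to 26118 units with emodin, 653 to 1421 units with LPS and IFNg alone, and 28821 to 91027 units in control samples. Group means were 5.19 ± 0.45, 0.38 ± 0.55 and 6.04 ± 0.65 (SD, n = 4 each) in LPS_IFNg_emodin, LPS_IFNg and control samples.

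The difference for Bex1 was 4.81 ± 0.35 (SE) on the log2 scale between LPS_IFNg_emodin and LPS_IFNg, or 28.1-fold higher. It was -5.66 ± 0.35 between LPS_IFNg and control, or 50.5-fold lower. Between LPS_IFNg_emodin and control it was -0.85 ± 0.35, 1.80-fold lower with overlapping arrays. The first 2 differences share the LPS_IFNg arrays and are not independent of each other. Probe A_65_P16753 gave 4.71 ± 0.37, -5.73 ± 0.37 and -1.03 ± 0.37 for the same comparisons, each within its SE of the other probe. Without the 4 arrays that went against their labels, the brighter probe gave 4.71, -5.92 and -1.22. In such bulk RNA, fewer cells of a type that expresses a gene and less of its RNA per cell cannot be told apart.

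Bex4, whose promoter window nearly copies that of Bex1, was not well above background on any of the 12 arrays. Its level averaged -6.04 ± 0.20 in LPS_IFNg_emodin, -6.02 ± 0.11 in LPS_IFNg and -5.93 ± 0.64 in control samples (SD, n = 4 each). Bex2, the member without an E-box in its window, was likewise not above background on any array, with means of -6.36 ± 0.27, -6.21 ± 0.33 and -6.86 ± 0.11 in LPS_IFNg_emodin, LPS_IFNg and control samples. No fold is given for either gene, since such signals carry no level. Probe sequences were not used here, so whether a Bex1 probe also detects RNA of another Bex gene was not tested.

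Tceal7 had levels of -1.08, -1.45, -0.85 and -0.89 in LPS_IFNg_emodin replicates 1 to 4, and 2.02, 1.80, 0.42 and 0.98 in control replicates 1 to 4. On the 4 LPS_IFNg arrays it was not well above background, with signals of -5.85, -6.09, -6.29 and -5.51. The 3 groups did not overlap, and LPS_IFNg_emodin samples lay between LPS_IFNg and control samples. Tceal7 was at least 9.32-fold higher in LPS_IFNg_emodin than in LPS_IFNg samples, and at least 48.3-fold lower in LPS_IFNg than in control samples. These bounds set the measured group against the dimmest signals still well above background on the arrays of the unmeasured group. With normexp background correction the log2 differences were 2.53 and -4.51, smaller than these bounds. Between LPS_IFNg_emodin and control the difference was -2.37 ± 0.31 (SE), or 5.19-fold lower, and -3.05 without the 4 arrays that went against their labels.

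Tceal8, a small Tceal protein whose function is little described, was well above background on all arrays and had another order. Its level was -0.92, -0.97, -1.02 and -1.0 in LPS_IFNg_emodin replicates 1 to 4, -0.05, -0.41, -0.63 and -0.31 in LPS_IFNg replicates 1 to 4, and 0.61, 0.60, 0.32 and 0.06 in control replicates 1 to 4. The groups did not overlap, with LPS_IFNg_emodin lowest and control highest. The difference was -0.63 ± 0.14 (SE) between LPS_IFNg_emodin and LPS_IFNg, -0.75 ± 0.14 between LPS_IFNg and control, and -1.38 ± 0.14 between LPS_IFNg_emodin and control, or 1.55-fold, 1.68-fold and 2.60-fold lower. The 4 LPS_IFNg_emodin arrays spread by 0.05 (SD), less than the 0.24 of LPS_IFNg and 0.26 of control arrays.

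Tceal1, a nuclear phosphoprotein that modulates transcription, was well above background on control arrays and on no other array. Its level in control replicates 1 to 4 was -1.35, -1.20, -1.62 and -1.77. It was at least 6.96-fold lower in LPS_IFNg_emodin and at least 6.99-fold lower in LPS_IFNg than in control samples. Between LPS_IFNg_emodin and LPS_IFNg no fold is given, because both were below the background limit, at means of -6.06 ± 0.44 and -4.84 ± 0.47 (SD, n = 4 each). With normexp background correction the log2 differences from control were -1.57 in LPS_IFNg_emodin and -1.70 in LPS_IFNg, smaller than these bounds.

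Tceal5 was near the detection limit throughout. No LPS_IFNg_emodin array was well above background (mean -4.39 ± 0.32, SD, n = 4), against LPS_IFNg replicates 1 and 4 at -2.93 and -3.68 and replicates 2 and 3 not above it at -6.17 and -5.74. In control replicates 1 to 4 its level was -3.36, -3.02, -3.65 and -3.89. It was at least 1.68-fold lower in LPS_IFNg_emodin than in control samples, by a bound that did not hold with normexp background correction, where LPS_IFNg_emodin was 0.10 higher on the log2 scale. The LPS_IFNg arrays overlapped those of both other groups.

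Of the 7 members, 5 passed the filter on dim probes (well above background on all 4 arrays of a group), and Bex2 and Bex4 did not. Non-overlapping arrays were counted over genes that all 4 arrays of a compared group measured. They held for 3 of 3 such members in LPS_IFNg_emodin against LPS_IFNg, 2 higher and 1 lower (background 70.1% in all, 35.8% higher and 34.3% lower). In LPS_IFNg against control they held for 4 of 5 such members, all lower (background 64.9% in all, 33.4% lower). In LPS_IFNg_emodin against control they held for 4 of 5, all lower (background 73.2% in all, 35.7% lower). The median of all genes was 0.02, -0.04 and 0.02 in the same comparisons. The members were chosen with these differences known, and nothing is read from the counts.

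Over the 12 arrays Bex1 and Tceal7 had Pearson's r of 0.976, and 0.804 for deviations from group means. Tceal1 and Tceal8 had 0.944, and 0.519 for deviations. Bex1 and Tceal8 had 0.216 over arrays and 0.719 for deviations, so their arrays varied alike within groups while their group means had different orders. These are descriptions over arrays that share slides and scaling, and they include signals not well above background, of Tceal1 on 8 arrays and of Tceal7 on 4.

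**Figure D2:**
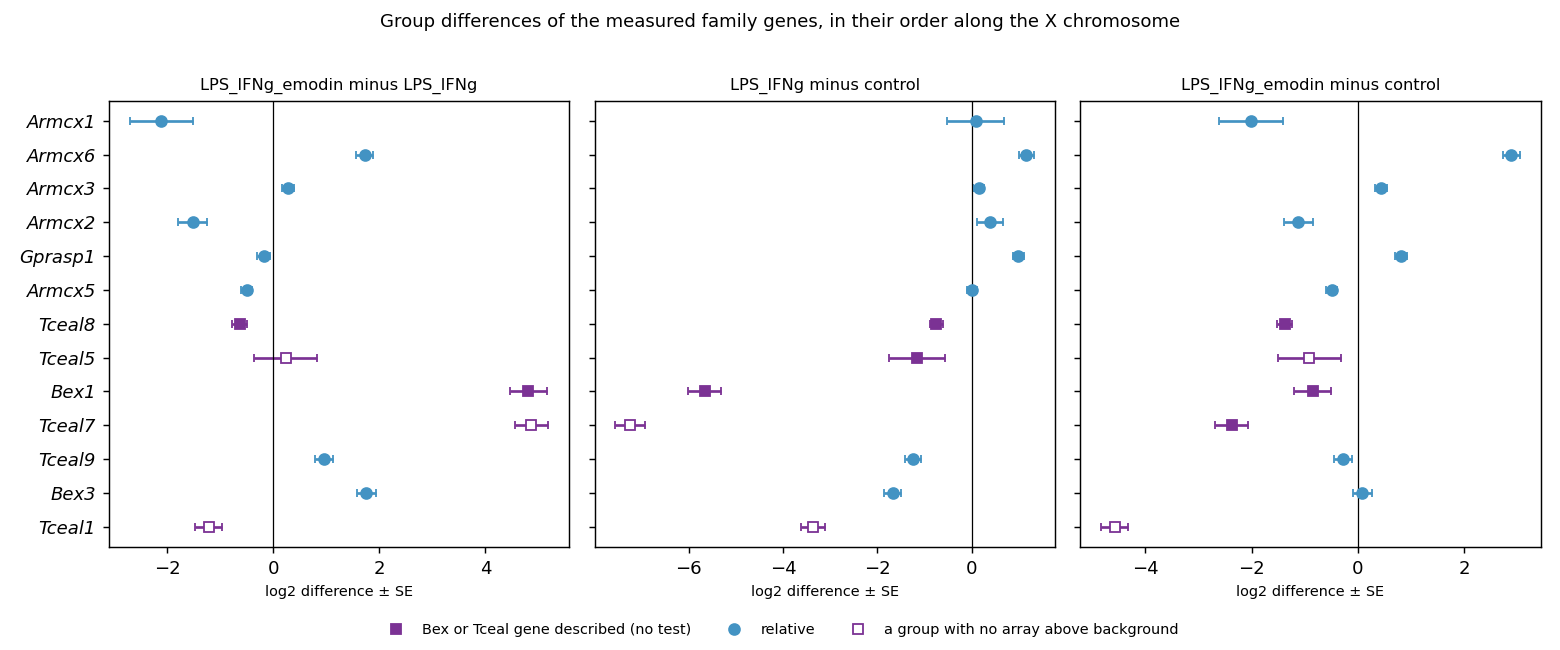
Log2 difference (x axis, ± SE) of the 13 family genes that passed the filter, from top to bottom in their order along the X chromosome, in LPS_IFNg_emodin minus LPS_IFNg, LPS_IFNg minus control and LPS_IFNg_emodin minus control. Squares are the 5 members, which carry no test, and circles the 8 relatives, while open squares mark a gene that no array of 1 of the groups measured well above background. Bex1 and Tceal7 lie far to the right in the left panel, at 4.81 and 4.86, where the value of Tceal7 is a difference of signals and not a bound.

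The relatives on the array, 16 genes of the Bex, Tceal, Armcx and Gprasp kind together with Bhlhb9, Arxes1 and Arxes2, were set beside the members with limma's test over 13165 genes, adjusted by Benjamini-Hochberg and called at 0.05. Of these, 8 passed the filter. In LPS_IFNg_emodin against LPS_IFNg 4 of these rose and 3 fell, where 72.2% of all genes were called, 36.6% higher and 35.6% lower. In LPS_IFNg against control 2 rose and 2 fell, where 69.1% of all genes were called and 35.5% were lower. In LPS_IFNg_emodin against control 3 rose and 3 fell, where 78% of all genes were called and 38.2% were lower. Without the 4 arrays that went against their labels these counts were 3 and 2, 2 and 2, and 2 and 3.

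Bex3, the p75NTR-associated cell death protein and neighbour of Tceal7 and Tceal9, had levels of 2.61, 2.14, 2.18 and 2.75 in LPS_IFNg_emodin replicates 1 to 4, 1.05, 0.50, 0.30 and 0.80 in LPS_IFNg replicates 1 to 4, and 2.30, 2.45, 2.39 and 2.20 in control replicates 1 to 4. The LPS_IFNg arrays were below all others, and the other groups overlapped. The gene was 3.38-fold higher with emodin than with LPS and IFNg alone (log2 difference 1.76 ± 0.17 SE, limma adjusted p = 2.59e-06). It fell by 1.67 in LPS_IFNg against control (adjusted p = 3.93e-06), and LPS_IFNg_emodin against control gave 0.08 (adjusted p = 0.675).

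Tceal9, next to Bex3 on the chromosome, rose by 0.96 ± 0.17 (SE) in LPS_IFNg_emodin against LPS_IFNg (limma adjusted p = 0.000243) and fell by 1.24 in LPS_IFNg against control (adjusted p = 3.35e-05). In LPS_IFNg_emodin against control it gave -0.28 (adjusted p = 0.143), a difference that passed the threshold in 6 other settings, at -0.58 to -0.37. On arrays scaled to the spike-in probes, the difference between LPS_IFNg_emodin and LPS_IFNg was 0.25 (adjusted p = 0.136). Tceal3, which lies between Bex3 and Tceal1, and Tceal6 were not tested, and Tceal6 was well above background on 3 control arrays and no other.

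The Armcx genes encode armadillo-repeat proteins, and Armcx3 is known for its part in mitochondrial transport in neurons. Armcx6 was highest with emodin, with levels of 2.87, 2.12, 2.20 and 2.54 in LPS_IFNg_emodin replicates 1 to 4, 0.85, 0.59, 0.90 and 0.49 in LPS_IFNg replicates 1 to 4, and -0.54, -0.38, -0.38 and -0.52 in control replicates 1 to 4. The groups did not overlap. Its differences were 1.72 in LPS_IFNg_emodin against LPS_IFNg (limma adjusted p = 1.17e-06), 1.16 in LPS_IFNg against control (adjusted p = 3.37e-05) and 2.89 in LPS_IFNg_emodin against control (adjusted p = 6.65e-09). Its dimmer probe gave 1.49, 1.01 and 2.50.

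Armcx2 fell by 1.52 in LPS_IFNg_emodin against LPS_IFNg (limma adjusted p = 0.000367) and by 1.13 in LPS_IFNg_emodin against control (adjusted p = 0.00256), with 0.39 in LPS_IFNg against control (adjusted p = 0.227). Armcx5 fell by 0.50 with emodin (adjusted p = 0.00112). Armcx1 fell (log2 difference -2.10, adjusted p = 0.00758), with 2 of 4 LPS_IFNg_emodin arrays above background, values of -2.82 to -0.72 in other settings and an adjusted p of 0.0658 without the 4 arrays that went against their labels. Armcx3, named after its values were seen, gave 0.28 on its brighter probe (adjusted p = 0.0441) and 0.52 on its dimmer one, and the brighter probe missed the threshold in other settings. Gprasp1, which sorts G protein-coupled receptors after endocytosis, rose by 0.99 in LPS_IFNg against control (adjusted p = 1.34e-05) and by 0.81 in LPS_IFNg_emodin against control (adjusted p = 4.94e-05).

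**Figure D3:**
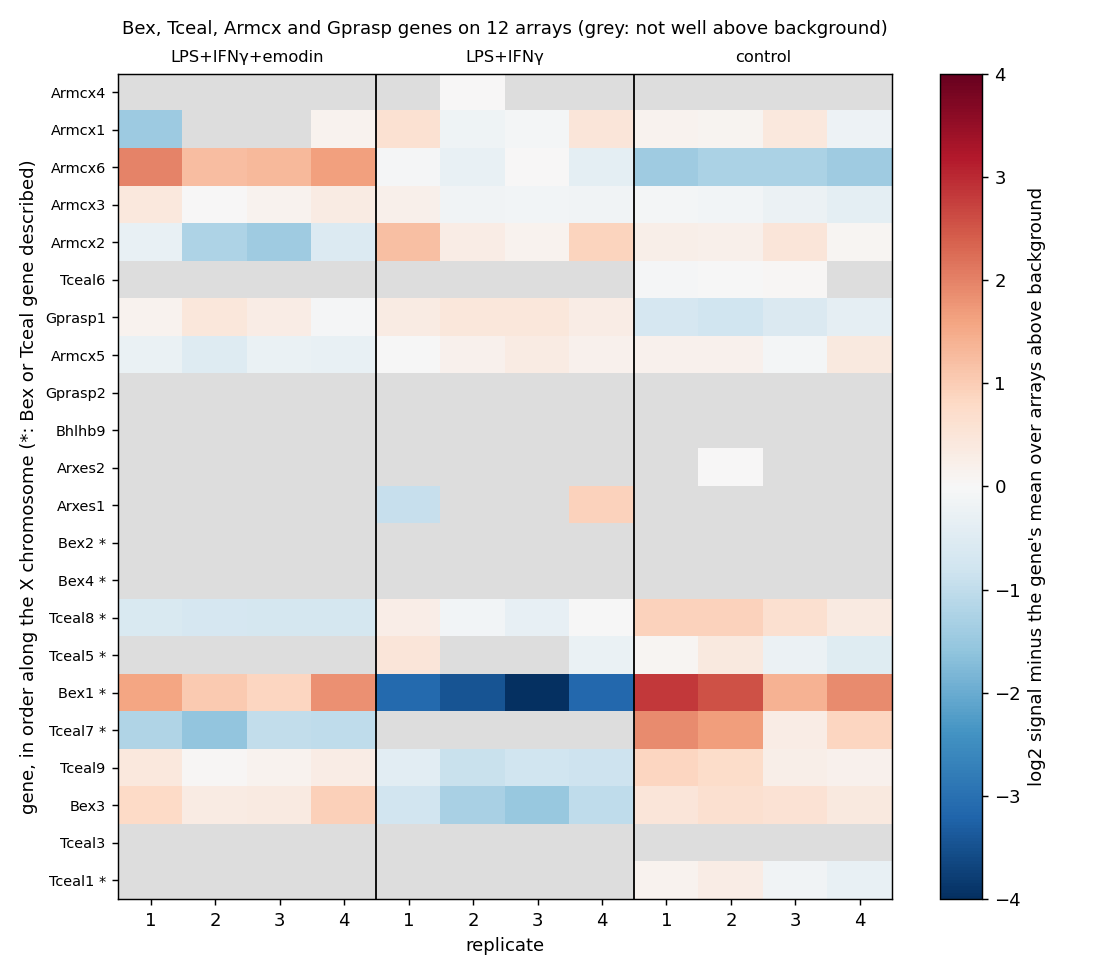
Log2 signal minus the gene's mean over the arrays that measured it (colour) of the 22 family genes on the X chromosome, from top to bottom in chromosomal order (y axis), on the 4 arrays of LPS_IFNg_emodin, LPS_IFNg and control each (x axis, replicate). Grey cells are not well above background. Tceal9 and Bex3, next to Tceal7, have their lowest values in the LPS_IFNg columns, as Bex1 has, while Armcx6 is highest in the LPS_IFNg_emodin columns.

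Of 43 annotated genes between Bex2 and Tceal1, 7 are members, 3 are relatives and 33 are others. Of these others, 4 had probes (Nxf3, 5730412P04Rik, Kir3dl1 and Kir3dl2), and their 6 probes were well above background in 2 of 72 probe and array pairs, so no neighbour outside the family gave a level to set beside the members. The annotation also places LOC115489115 over part of Bex1, and it had no probe of its own.

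The genes closest to Bex1 by Pearson's r over the 12 arrays, out of 13110 compared, were Senp8 (0.992), Acot2 (0.991), Cdkn1c (0.989), Ccl6 (0.988), Sh3gl1 (0.984), Sh3bgrl (0.984), Trem2 (0.984) and Ccl9 (0.984). Cdkn1c encodes the cyclin-dependent kinase inhibitor p57, Acot2 a mitochondrial acyl-CoA thioesterase, Trem2 a lipid-sensing receptor of macrophages, and Ccl6 and Ccl9 are CC chemokines of myeloid cells. Mean levels of Trem2 were 8.62 in LPS_IFNg_emodin, 5.90 in LPS_IFNg and 8.85 in control samples, and those of Cdkn1c were 5.78, 2.49 and 6.61. The arrays fall into 3 groups, so these correlations mostly repeat the order of 3 group means. The closest genes to Tceal7 were Dguok, Rab3il1 and Clec2i (0.990 each), to Tceal1 Camk1 (0.991), Arhgap15 and Gm5547 (both 0.990), to Tceal8 Mzt2 (0.987), Gm10767 (0.986) and Yeats4 (0.985), and to Tceal5 Tyr (0.907), Erbb2 (0.868) and G630025P09Rik (0.849). For Tceal1, Tceal5 and Tceal7 these values include arrays on which the gene was not well above background.

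Genes of the p75NTR and cell death side of Bex function were tested next, and this list and the 2 that follow are to be read against the 72.2%, 69.1% and 78% of all genes called in the 3 comparisons. Of 13 genes 11 passed the filter, and 6 rose and 4 fell in LPS_IFNg_emodin against LPS_IFNg, with a median of 0.43 beside 0.02 for all genes. Ngfr, which encodes p75NTR itself, and Ntf3 did not pass the filter. Bdnf, a ligand of p75NTR, rose by 1.50 (limma adjusted p = 0.00016) with 1 of 4 LPS_IFNg arrays above background, and Sort1, its co-receptor for proneurotrophins, rose by 1.23 (adjusted p = 0.000189). Xiap, an inhibitor of apoptosis, rose by 1.01 (adjusted p = 2.36e-06), and Bcl2, which protects mitochondria from permeabilisation, fell by 0.65 (adjusted p = 0.0113). In LPS_IFNg against control 4 rose and 4 fell, with Sort1 at -4.49 (adjusted p = 2.81e-09), and in LPS_IFNg_emodin against control 5 rose and 3 fell.

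Of 14 genes of transcription elongation and of the targets described for Tceal proteins, 13 passed the filter. In LPS_IFNg_emodin against LPS_IFNg 9 rose and 2 fell (median 0.53 beside 0.02 for all genes), in LPS_IFNg against control 6 rose and 2 fell, and in LPS_IFNg_emodin against control 10 rose and 1 fell. Myc rose by 3.22 with emodin (limma adjusted p = 2.02e-08) and fell by 1.98 in LPS_IFNg against control (adjusted p = 9.04e-07). Ccnd1, which encodes cyclin D1, fell by 2.31 with emodin (adjusted p = 1.43e-06). Tcea1 gave -0.24 (adjusted p = 0.0686), and Cdk9, the kinase that releases paused polymerase, rose by 0.53 (adjusted p = 3.27e-06).

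Of 10 regulators of silencing, all measured, 6 rose and 2 fell with emodin (median 0.55). Ezh2, the methyltransferase of the Polycomb repressive complex, rose by 1.48 (limma adjusted p = 7.81e-08) and Dnmt3a, a DNA methyltransferase, by 1.50 (adjusted p = 9.42e-06), while the histone deacetylases Hdac1 and Hdac2 fell by 1.23 (adjusted p = 1.9e-05) and 0.86 (adjusted p = 1.53e-05). Rest, the repressor of neuronal genes, gave -0.18 with emodin (adjusted p = 0.142) and rose by 1.08 in LPS_IFNg against control (adjusted p = 1.97e-06). In LPS_IFNg against control 5 of the 10 rose and 4 fell, and in LPS_IFNg_emodin against control 5 rose and 2 fell.

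The split of these lists depends on the scaling. Between LPS_IFNg_emodin and LPS_IFNg the log2 75th percentile differed by -0.79. The spike-in probes differed by -0.07 ± 0.02 (SE over the 4 pairs of same-numbered arrays). They were lower with emodin in 4 of 4 pairs (exact two-sided sign-flip p = 0.125, the smallest 4 pairs allow). Their mean log2 signal was 12.4 in LPS_IFNg_emodin, 12.5 in LPS_IFNg and 10.1 in control samples, and spike-in scaling was applied to LPS_IFNg_emodin against LPS_IFNg only. The comparisons with control therefore have no spike-in check. Scaled to the spike-ins, the median of all genes shifted to -0.69 and 11.9% of calls were higher, against 50.6% otherwise. Elongation genes then split into 3 higher and 5 lower, p75NTR partners into 2 and 6, silencing regulators into 2 and 4, and relatives into 2 and 5. Bex1 and Tceal7 were still higher, at 4.10 and 4.15, and Tceal8 lower, at -1.35. The splits in LPS_IFNg against control also moved, with the usual scaling, without the 4 arrays that went against their labels. Elongation genes then split into 8 higher and 2 lower, p75NTR partners into 3 and 5, and silencing regulators into 3 and 4.

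**Figure D4:**
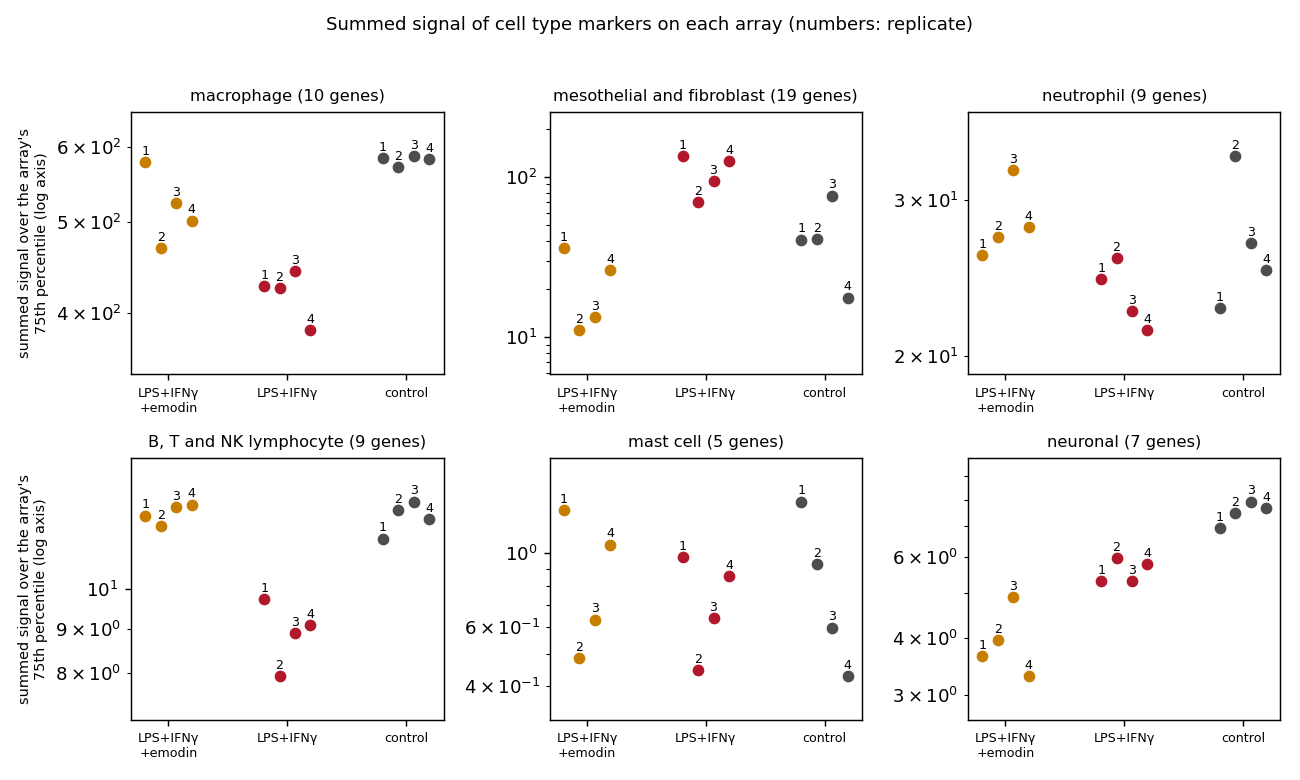
Summed signal over the array's 75th percentile (y axis, log) of the probes of 6 cell type marker lists in LPS_IFNg_emodin, LPS_IFNg and control samples (x axis), with 1 point per array and its replicate number. Mesothelial and fibroblast markers sum to 11.0 to 35.8 with emodin, 70.0 to 135 with LPS and IFNg alone and 17.7 to 76.4 in control samples. The neuronal sum is lowest with emodin, while its gene Snap25 is lowest with LPS and IFNg alone (mean level 1.44, against 1.90 with emodin).

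Because Bex and Tceal genes are known from neurons and other non-myeloid cells, marker lists were measured beside them. Their sums and differences are relative to the 75th percentile, which differed by -0.79 on the log2 scale between LPS_IFNg_emodin and LPS_IFNg. Spike-in probes differed by -0.07 there, and marker sums were not computed on the spike-in scale. The order of these groups in the marker sums can therefore depend on the scaling. Of 7 neuronal markers, Rbfox3 and Gap43 were not above background on any array, Snap25 was above it on all, and the list summed to 3.30 to 4.91 times the 75th percentile in LPS_IFNg_emodin, 5.31 to 5.96 in LPS_IFNg and 6.94 to 7.92 in control samples. Its 3 tested markers did not move together in LPS_IFNg against control, where Uchl1 rose by 3.26 (limma adjusted p = 2.55e-07) and Tubb3 by 1.82 (adjusted p = 0.000264) while Snap25 fell by 1.39 (adjusted p = 5.53e-07). With emodin Snap25 rose by 0.46 (adjusted p = 0.00372) against LPS_IFNg, and Uchl1 and Tubb3 fell. Of 19 mesothelial and fibroblast markers, 6 to 10 were above background on LPS_IFNg_emodin, 11 or 12 on LPS_IFNg and 15 to 18 on control arrays. The sum of that list was 11.0 to 35.8, 70.0 to 135 and 17.7 to 76.4 in LPS_IFNg_emodin, LPS_IFNg and control samples. Control replicate 3 overlapped the LPS_IFNg range. Dcn and Col1a2, with mean levels of 6.01 and 4.89 in LPS_IFNg samples, weighed most in the sum of that group. With emodin none of the 16 tested genes of that list rose and 8 fell (72.2% of all genes called, 35.6% lower). In LPS_IFNg against control 5 rose and 8 fell (69.1% of all genes called, 35.5% lower). In LPS_IFNg_emodin against control none rose and 14 fell (78% of all genes called, 38.2% lower). The mesothelial markers differed among themselves, with Msln and Krt18 above background on all 12 arrays, Wt1 and Krt19 on all LPS_IFNg and control arrays, and Upk1b, Lrrn4 and Gpm6a on control arrays and no other.

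Macrophage markers summed to 469 to 579 with emodin, 384 to 443 with LPS and IFNg alone and 572 to 588 in control samples. The list did not move together. With emodin 3 of its 10 genes rose and 6 fell (72.2% of all genes called, 35.6% lower). In LPS_IFNg against control 4 rose and 5 fell (69.1% of all genes called, 35.5% lower). Lyz2, a bright member of the sum, rose by 0.92 with emodin (limma adjusted p = 3.56e-06), while Mertk fell by 1.71 (adjusted p = 1.57e-06). Neutrophil markers summed to 26.0 to 32.4, 21.4 to 25.7 and 22.7 to 33.6 in LPS_IFNg_emodin, LPS_IFNg and control samples. S100a8, Elane and Camp were above background on all arrays, and Ngp on no array. Lymphocyte markers summed to 11.8 to 12.5, 7.94 to 9.75 and 11.4 to 12.6, and mast cell markers to 0.486 to 1.35, 0.445 to 0.976 and 0.428 to 1.43, in the same order of groups. The part of these cell types in the levels of the Bex and Tceal genes was not tested.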

How the data were processed

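Scanner output deposited by the authors gives the intensity of each spot, read with Agilent Feature Extraction (version 10.7.3.1 in the submitters' processing notes). Per the file headers, the processed signal is background-subtracted within an array and the array annotation is on build mm9. A deposited table of log2 values correlated at 0.999 or more with quantile-normalised signal after subtraction of each probe's median, so its direction follows signal (column medians -0.0314 to 0.0416). In it, control columns 1, 3 and 4 fitted scanner output 4, 1 and 3. It served as an alternative.

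After removal of outlier spots (78 to 415 per array), the remaining spots of each probe were averaged as log2 processed signal, and the array's log2 75th percentile was taken off. Kept were 27375 of 55681 probes, those well above background on every array of some group. Accessions were matched to RefSeq names (GRCm38.p6), which named 27503 probes, none of them with several symbols. The kept probe with the highest mean stood for each of 13165 genes. Group differences came from limma 3.58.1 in R 4.3.3, fitted to all 12 arrays, with two-sided adjusted p-values over all genes tested and calls at 0.05. On simulated arrays for LPS_IFNg_emodin against LPS_IFNg (13115 genes, 200 changed, 5 draws) the fit found 86% of 2-fold and 96.6% of 4-fold changes, with 4.06% false among calls. Those arrays had independent noise and few changed genes, while 72.2% of genes were called in the data. The rates therefore check the code and are not the rates of the comparisons given here. Arrays carry no counts, so their number limits the precision.

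Replicate numbers pair LPS_IFNg_emodin with LPS_IFNg samples, since deviations of same-numbered arrays correlated at 0.151 to 0.283, and do not pair them with control samples (-0.187 to 0.142). The members and lists were chosen with earlier results of these data known. Named are all members with every probe, called relatives with the largest differences, neighbours on the chromosome, the 8 genes most like Bex1 and the 3 most like other measured members, and genes of the fixed lists. Alternatives covered scaling, background correction (normexp on median spot signals, offset 50, because mean signals were not used here), the dim-probe filter, the probe per gene, the value table, the replicate block, labelled sex and left-out arrays.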

Additional observations from a re-analysis of the deposited data

Results flagged for a closer look

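In 3 of 48 groups of 4 arrays, 1 array lay far from the rest, where chance marks about 1 in 20. Bex2 was at -5.73 in LPS_IFNg replicate 3, which is an array whose sex-linked genes went against its label, but no array of that group was well above background for Bex2. Armcx5 was at -0.37 in LPS_IFNg_emodin replicate 2. Armcx3 was at 2.73 in LPS_IFNg replicate 1.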

How the results depend on the processing

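Member differences stayed within the spread between replicates in 349 of 366 alternatives. Relatives stayed called or not called, and kept their direction where called, in 570 of 597. Some alternatives, such as the replicate block or leaving out an array of a group not compared, cannot alter a difference of group means. Agreement of the member differences was fixed in advance there, so the first count overstates their stability. Leaving out 1 array at a time, members with non-overlapping arrays numbered 3 in LPS_IFNg_emodin against LPS_IFNg, 4 in LPS_IFNg against control and 4 to 5 in LPS_IFNg_emodin against control, relatives called 6 to 7, 4 and 6, and all genes called 9094 to 9674, 8635 to 9119 and 9962 to 10325. Bex1 kept 4.55 to 4.97 for LPS_IFNg_emodin against LPS_IFNg and -5.92 to -5.40 for LPS_IFNg against control. With a block for the replicate number, the member counts, which a block cannot alter, were 3, 4 and 4. Replicate numbers do not pair samples with control, so the block is a pairing in LPS_IFNg_emodin against LPS_IFNg only. All genes called were then 9638 in LPS_IFNg_emodin against LPS_IFNg, and the block changed no call of a relative there.

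Requiring every array to be well above background left 2 members in LPS_IFNg against control and 1 in LPS_IFNg_emodin against control, since fewer genes were tested. Without a filter, 7 relatives were called in LPS_IFNg against control. With every kept probe as its own row, calls were 19127, 17972 and 20290 of 27375. Tceal1 in LPS_IFNg_emodin against LPS_IFNg was 0.13 with normexp, against -1.22, where neither group was well above background, and normexp gave Tceal7 2.53 in that comparison and -4.51 in LPS_IFNg against control. Armcx3 in LPS_IFNg_emodin against LPS_IFNg was -0.44 with spike-in scaling (limma adjusted p = 0.00413). With the usual scaling it missed the threshold without 7 single arrays (limma adjusted p 0.0514 to 0.126). The cause was not tested. Signal over background limits Bex2, Bex4, Tceal1 and Tceal5.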
